A study of Mus musculus with 8 samples.

Results

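Described here are 10 antiviral genes that type I interferon is known to induce, though its action on these cells was not tested. They are the RNA-binding effectors Ifit1, Ifit2 and Ifit3, the effector enzymes Oasl2, Rsad2 and Samhd1, the nucleic acid sensors Ifih1 and Zbp1, the ubiquitin-like modifier Isg15 and its protease Usp18. A member was measured by every probe set (a group of probes read as 1 value on the array) annotated to its symbol alone, and its main probe set was the one with the highest mean over the 8 arrays. Single-symbol probe sets existed for 9 of the 10 symbols, among 18193 genes named on the array. The only probe set of Isg15 is also annotated to Gm9706, so Isg15 has no value here. Of the 9 genes, 8 passed the filter on dim signals, which kept genes above their array's median signal on at least 2 arrays, and Oasl2 did not.

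The cells were CD4 T cells purified by autoMACS (magnetic sorting) from spleens of 8-week-old mice, and all groups were activated with antibodies to CD3 and CD28 for 15 h. During the last 3 h they received db-cAMP, a cell-permeable form of the second messenger cyclic AMP, or vehicle. The 4 groups were cells deficient in IFN-γ receptor 1 (IFN-gR1, called KO here) with db-cAMP, KO cells with vehicle, wild-type (WT) cells with db-cAMP and WT cells with vehicle, each with 2 Affymetrix arrays. The titles call the 2 arrays biological replicates without saying whether mice or cultures were separate. A p-value therefore reflects the spread among these arrays alone, which may be technical. For the 4 KO arrays the free-text descriptions name WT cells, against the titles, source names and genotype entries, and these last 3 labels were followed.

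Type I interferons (IFN-α and IFN-β) bind the receptor chains IFNAR1 and IFNAR2, whose kinases JAK1 and TYK2 activate STAT2. With IRF9 it is part of a complex that binds interferon-stimulated response elements (ISRE) in promoters of antiviral genes. IFN-γ uses another receptor, of which IFN-gR1 is the ligand-binding chain, and acts mainly through gamma-activated sites (GAS). Many antiviral genes can respond to both kinds of interferon, and T cells activated through CD3 and CD28 make IFN-γ themselves.

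Promoters of 5 members are shown for the letters they hold of motifs to which factors of these pathways are known to bind. Sequences of 250 bases before to 50 bases after the start were taken from RefSeq (build GRCm38.p6), which gave 9 promoters for 8 of the 10 members. Zbp1 and Usp18 were not among them. Both strands were searched for an ISRE-like motif (GAAANNGAAA), a GAS-like motif (TTCNNNGAA) and the core of the cyclic AMP response element (TGACGT). Of 32851 promoters of the same length, 3.44% held the ISRE-like motif, 8.3% the GAS-like motif and 7.51% the cyclic AMP core. Among the members, 5 held an ISRE-like motif (Ifit1, Ifit3, Rsad2, Ifih1 and Isg15), 2 a GAS-like motif (Ifit2, at 1 of its 2 starts, and Samhd1) and 2 the cyclic AMP core (Ifih1 and Oasl2). The 3 matches of Isg15 overlapped one another, between -78 and -57 bases from the start.

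Ifit1 (chr19:34640639-34640938, plus strand) held 2 ISRE-like matches, at -104 to -95 and -85 to -76 from the start. Each reads as the reverse complement of the motif, shown in capitals.
Ifit1: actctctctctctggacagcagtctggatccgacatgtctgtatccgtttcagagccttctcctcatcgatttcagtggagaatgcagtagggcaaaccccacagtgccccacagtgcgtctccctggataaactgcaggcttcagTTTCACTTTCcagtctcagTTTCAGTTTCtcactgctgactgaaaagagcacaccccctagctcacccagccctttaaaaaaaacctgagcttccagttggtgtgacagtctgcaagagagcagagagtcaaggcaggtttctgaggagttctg
Its neighbour Ifit3 (chr19:34583279-34583578, plus strand) held 2 as well, at -156 to -147 and -122 to -113, also as the reverse complement and in capitals.
Ifit3: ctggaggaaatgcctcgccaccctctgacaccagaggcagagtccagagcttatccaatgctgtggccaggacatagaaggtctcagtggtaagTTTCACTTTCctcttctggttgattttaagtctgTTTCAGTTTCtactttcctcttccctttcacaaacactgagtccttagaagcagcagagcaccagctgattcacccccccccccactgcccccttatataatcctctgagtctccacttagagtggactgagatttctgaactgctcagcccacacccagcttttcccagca
Rsad2 (chr12:26456403-26456702, minus strand) held 1, at -120 to -111, in capitals as the reverse complement.
Rsad2: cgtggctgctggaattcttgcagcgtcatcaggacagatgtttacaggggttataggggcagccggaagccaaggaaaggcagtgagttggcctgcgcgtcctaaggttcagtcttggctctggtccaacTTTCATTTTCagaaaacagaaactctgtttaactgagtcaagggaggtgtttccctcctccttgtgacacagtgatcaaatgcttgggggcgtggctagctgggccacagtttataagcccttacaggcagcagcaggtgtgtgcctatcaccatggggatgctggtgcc

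Samhd1 (chr2:157135047-157135346, minus strand) held no ISRE-like match in this window, and its capitals mark a GAS-like match at -235 to -227.
Samhd1: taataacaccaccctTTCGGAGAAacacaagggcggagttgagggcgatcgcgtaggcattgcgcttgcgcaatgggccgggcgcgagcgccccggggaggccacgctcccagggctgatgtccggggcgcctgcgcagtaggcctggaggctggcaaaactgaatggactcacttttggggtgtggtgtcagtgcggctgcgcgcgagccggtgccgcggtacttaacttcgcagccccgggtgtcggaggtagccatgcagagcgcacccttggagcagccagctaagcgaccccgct
Ifih1 (chr2:62646206-62646505, minus strand) held its matches after the start, and its capitals mark the cyclic AMP core at 3 to 8 and an ISRE-like match at 33 to 42.
Ifih1: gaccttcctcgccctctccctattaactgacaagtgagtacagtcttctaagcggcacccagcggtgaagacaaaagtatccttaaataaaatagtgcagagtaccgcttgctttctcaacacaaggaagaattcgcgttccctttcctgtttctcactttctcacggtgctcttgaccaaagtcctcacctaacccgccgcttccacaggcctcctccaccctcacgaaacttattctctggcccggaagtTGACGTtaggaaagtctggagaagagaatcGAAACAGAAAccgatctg
A match describes letters in this window and is not evidence of binding.

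Within each treatment the targeted gene gave the lower signal in the group labelled KO. Ifngr1 gave 1056 and 1272 in KO cells with db-cAMP and 439 and 378 in KO cells with vehicle, against 7319 and 8201 in WT cells with db-cAMP and 905 and 873 in WT cells with vehicle. Where its probes lie relative to the deleted part is not stated in the labels. The 6 of 7 CD4 T cell markers with a probe set, Cd4 and CD3 chains among them, lay above the median signal on every array. Under db-cAMP Cd3d was called lower in KO than in WT cells, and Cd3e, Cd5 and Cd28 higher. Under vehicle Cd3d and Cd3g were called lower in KO cells and Cd28 higher. With db-cAMP in WT cells Cd3e, Cd3g and Cd5 were called lower and Cd28 higher. In KO cells only Cd28 was called, as higher. Cd4 was not called in these comparisons. The summed signal of the 2 CD8 T cell markers was 270 to 276 in KO cells with db-cAMP, 290 to 335 in KO cells with vehicle, 367 to 433 in WT cells with db-cAMP and 499 to 516 in WT cells with vehicle. The summed signal of the 5 of 6 B cell markers measured was 351 to 395, 434 to 463, 524 to 648 and 483 to 572 in the same order of groups. The summed signal of the 3 of 4 NK cell markers measured, most of it from Klrd1, was 1024 to 1028, 444 to 596, 875 to 900 and 447 to 574 in that order. The sums of macrophage and neutrophil markers ran from 402 to 592 over all arrays and those of dendritic cell markers from 178 to 370. Of the B cell markers Cd79a lay below the median signal on every array and Ms4a1 above it on every array, and of the NK cell markers Ncr1 lay below and Klrd1 above. Of the 7 macrophage and neutrophil markers Cd14, Itgam and S100a9 lay below on every array and Lyz2 above. Ms4a1 and Cd79b were called lower in KO cells than in WT cells under db-cAMP (adjusted p = 0.0345 and 0.0288). Pax5 and Blk were not called there, at -0.26 and 1.16 on the log2 scale (adjusted p = 0.844 and 0.34). Cd8b1 was called lower in KO cells under both treatments (adjusted p = 0.00514 under db-cAMP and 0.0121 under vehicle). Cd8a was called under neither, at 0.03 under db-cAMP and -0.22 under vehicle (adjusted p = 0.948 and 0.743). Klrd1 was called higher with db-cAMP in KO and in WT cells (adjusted p = 0.000258 and 0.000719). Poly-A control signals also separated the genotypes, at 3699 to 5188 on KO arrays and 1283 to 1911 on WT arrays. So did hybridisation controls, at 14330 to 15857 on KO arrays and 18077 to 27169 on WT arrays, and the ratio of 3-prime to 5-prime signal of 18S RNA, at 0.513 to 0.623 on KO arrays and 0.353 to 0.441 on WT arrays. Array processing and genotype therefore cannot be told apart. The 18S signal separated the treatments, at 31397 to 38701 on db-cAMP arrays and 24553 to 28575 on vehicle arrays.

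In WT cells, db-cAMP raised 6 of the 8 members tested and lowered 1, where a call means a Benjamini-Hochberg adjusted p under 0.05 in limma's fit of all 8 arrays. Ifit1, Usp18, Zbp1, Samhd1, Rsad2 and Ifit2 were higher with db-cAMP, Ifih1 was lower, and Ifit3 did not pass the test. Ifit1 passed the filter through WT arrays alone, so its rise is not independent of that filter. Over all 12091 genes tested 16.4% were called higher and 18.6% lower in this comparison. The median log2 change of the 8 members was 1.59, against 0.01 for all genes tested. In KO cells 3 of 8 members rose (Usp18, Zbp1 and Samhd1) and Ifih1 fell, against 4.7% of all genes called higher and 3.68% called lower. The median log2 change of the members in KO cells was 0.07, against -0.00 for all genes. The count of 4 calls in KO cells went to 0 without replicate 1 of KO with vehicle and to 1 without any other of the KO arrays.

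With db-cAMP in both, 6 of the 8 members were lower in KO cells than in WT cells (Ifit1, Zbp1, Samhd1, Usp18, Ifit3 and Ifit2) and 0 were higher, in limma's fit and also at an unadjusted p under 0.05. Since Ifit1 passed the filter through WT arrays alone, its call as lower in KO cells is not independent of that filter. Over all genes tested 15.9% were called higher and 13.3% lower in KO cells. With vehicle in both, 3 members were lower in KO cells (Zbp1, Samhd1 and Usp18) and 0 were higher. At an unadjusted p under 0.05 limma had 1 member higher (Rsad2, by its main probe set). The background in that comparison was 5.06% of genes higher and 5.78% lower. When arrays were set to an equal 75th percentile in place of the deposited scaling, the median of all genes in KO against WT under db-cAMP shifted to -0.13. That scaling gave 1370 genes higher and 2243 lower under db-cAMP, against 1926 and 1603 with the deposited scaling. Under vehicle it gave 401 higher and 1177 lower, against 612 and 699. In KO cells with db-cAMP against vehicle it gave 447 higher and 584 lower, against 568 and 445. The members' calls in both comparisons of KO with WT kept their direction under that scaling.

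The effect of db-cAMP itself differed between genotypes for 5 of the 8 members. The interaction, the db-cAMP effect in KO cells minus that in WT cells on the log2 scale, was below 0 for Ifit1, Usp18, Samhd1, Zbp1 and Ifit2. It was above 0 for 0 members, in limma's fit and also at an unadjusted p under 0.05. Over all genes tested 6.7% had an interaction called above 0 and 5.09% one called below 0. The call of Ifit1, which passed the filter through WT arrays alone, is not independent of that filter. Samhd1 kept its call in every alternative run. The count of 5 went to 2 without any one of replicates 1 and 2 of KO with db-cAMP, replicate 2 of KO with vehicle, replicate 2 of WT with db-cAMP or replicate 2 of WT with vehicle, and to 3 without replicate 1 of WT with db-cAMP. These comparisons share arrays and are not independent of one another. In sorted cells measured in bulk, fewer cells of a type and less RNA per cell cannot be told apart. The part of the marker and control signals above in these differences was not tested.

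**Figure D1:**
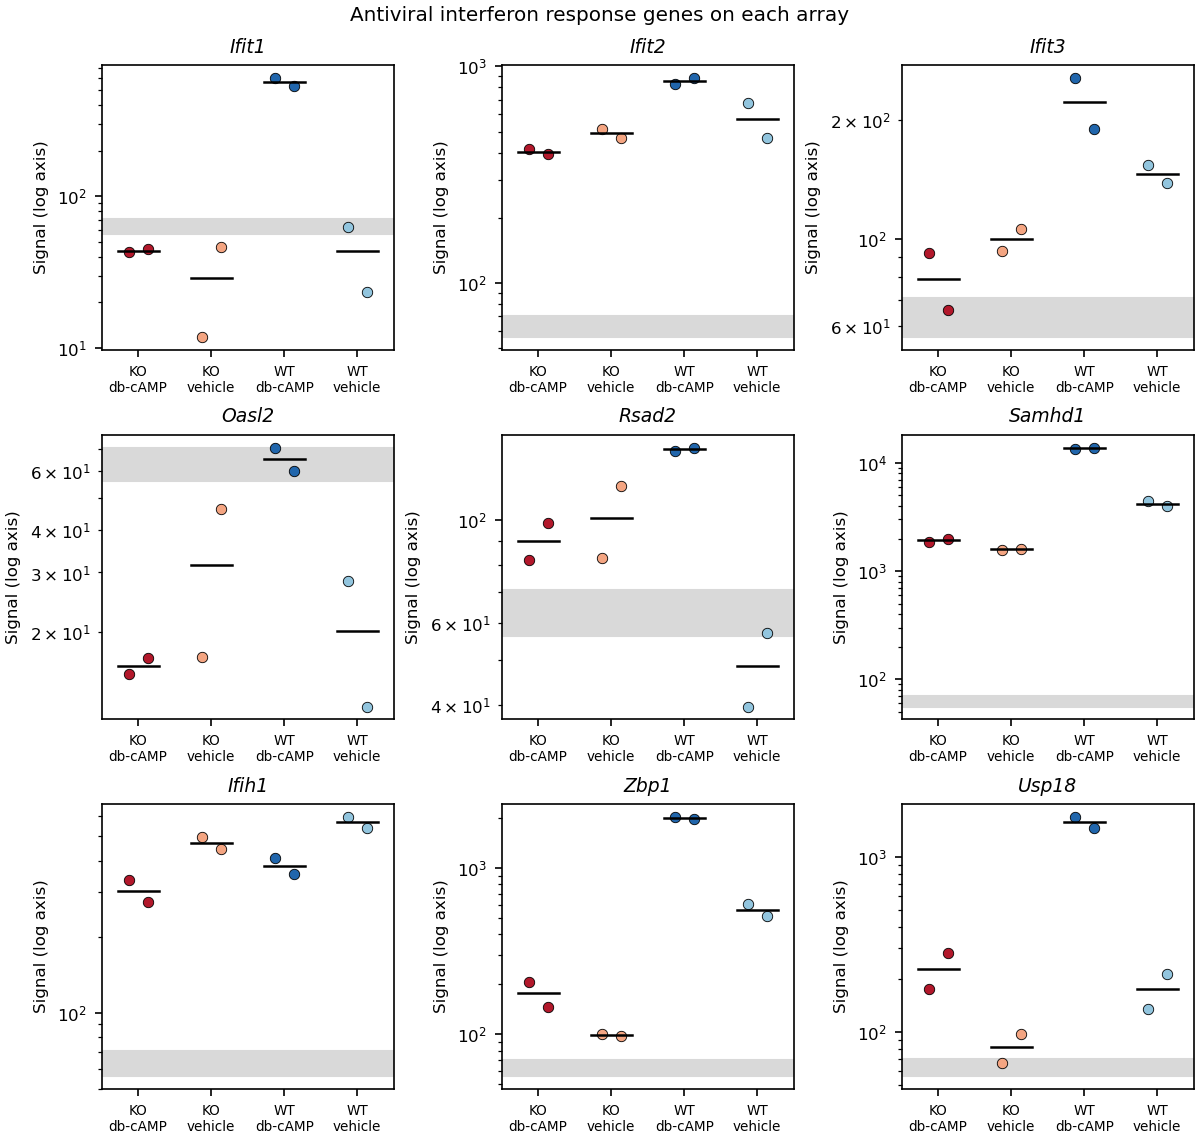
Signal (scaled linear intensity, log axis) of the main probe set of each member on each of the 8 arrays, by group, with points for arrays, lines for group means and a grey band for the range of the arrays' median signals, 56.2 to 70.5. Samhd1, Zbp1, Usp18 and Ifit1 stand highest in WT cells with db-cAMP, whereas Oasl2 lies within or under the band on most arrays.

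The IFIT proteins are tetratricopeptide-repeat proteins that bind foreign RNA and hinder its translation, and Ifit1 recognises the RNA cap. Ifit1 gave 42.9 and 44.9 in KO cells with db-cAMP, 11.8 and 46.1 in KO cells with vehicle, 601 and 530 in WT cells with db-cAMP, and 63.3 and 23.4 in WT cells with vehicle. It stood clear of the median signal in WT cells with db-cAMP only, was below it on 5 of 8 arrays, and passed the filter through WT arrays. In WT cells Ifit1 rose with db-cAMP by at least 8.89-fold (adjusted p = 0.000218), where the bound raises signals below the array's median to that median. The fitted log2 change was 3.68 ± 0.58, against a vehicle group in which 1 of 2 arrays lay below the median. In KO cells its change was 0.73 ± 0.58 (95% interval -0.53 to 1.98, adjusted p = 0.564), between values that overlapped. With db-cAMP it was at least 9.45-fold lower in KO cells than in WT cells (adjusted p = 0.000443). The fitted effects differed by -2.95 ± 0.82 (adjusted p = 0.0337), a size that rests on signals near background, since 5 of the 6 arrays outside WT with db-cAMP lay below the median. That call was lost under 10 of the alternatives, 6 of which left out 1 array (both arrays of KO with db-cAMP, replicate 2 of KO with vehicle, both of WT with db-cAMP and replicate 2 of WT with vehicle), with adjusted p of 0.0578 to 0.146 over the 10.

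Ifit2, which can promote cell death as well as bind RNA, was well above the median signal in every group. It gave 413 and 395 in KO cells with db-cAMP, 513 and 467 in KO cells with vehicle, 827 and 882 in WT cells with db-cAMP, and 678 and 467 in WT cells with vehicle. Both WT arrays with db-cAMP lay above all other arrays, and the WT vehicle arrays differed more between themselves than the replicates of other groups. Ifit2 rose with db-cAMP in WT cells by 0.60 ± 0.17 on the log2 scale (adjusted p = 0.0125). The call was lost without replicate 2 of WT with db-cAMP (adjusted p = 0.0686) and without replicate 2 of WT with vehicle, where the change was 0.33 (adjusted p = 0.15). In KO cells the change was -0.27 ± 0.17 (95% interval -0.63 to 0.08, adjusted p = 0.403). With db-cAMP Ifit2 was 2.1-fold lower in KO cells than in WT cells (log2 change -1.07 ± 0.17, adjusted p = 0.000283). The effects differed by -0.87 ± 0.23 (adjusted p = 0.0285), a call lost under 8 alternatives, among them leaving out either array of either KO group or replicate 2 of either WT group (adjusted p of 0.0606 to 0.0994 over these 6).

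Ifit3, of the same protein family, gave 91.8 and 66.0 in KO cells with db-cAMP, 93.3 and 106 in KO cells with vehicle, 256 and 189 in WT cells with db-cAMP, and 154 and 138 in WT cells with vehicle. The WT arrays with db-cAMP were the highest and did not overlap the WT vehicle arrays. The difference did not pass the test, at 0.58 ± 0.32 on the log2 scale (95% interval -0.11 to 1.27, adjusted p = 0.191). With db-cAMP Ifit3 was 2.71-fold lower in KO cells than in WT cells (log2 change -1.44 ± 0.32, adjusted p = 0.00377). The change in KO cells was -0.33 ± 0.32 (adjusted p = 0.651), and the interaction of -0.91 ± 0.45 did not pass (adjusted p = 0.244). Mouse Ifit3 has a near-identical copy, Ifit3b, whose transcripts its probes may also read.

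Oasl2 belongs to the oligoadenylate synthetase family, which senses double-stranded RNA. Its signal was 15.0 and 16.7 in KO cells with db-cAMP, 16.8 and 46.2 in KO cells with vehicle, 70.1 and 60.1 in WT cells with db-cAMP, and 28.3 and 12.0 in WT cells with vehicle. The WT arrays with db-cAMP were the highest, yet 7 of 8 arrays lay below their array's median, and Oasl2 was not tested.

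Rsad2 encodes viperin, an enzyme that makes a nucleotide that ends viral RNA chains. Its main probe set gave 82.1 and 98.2 in KO cells with db-cAMP, 82.9 and 118 in KO cells with vehicle, 141 and 143 in WT cells with db-cAMP, and 39.6 and 57.1 in WT cells with vehicle. The KO groups overlapped, whereas in WT cells both db-cAMP arrays stood above both vehicle arrays, which were below the median signal. In WT cells it rose by 1.47 ± 0.40 on the log2 scale (adjusted p = 0.0106), at least 2.37-fold, and without replicate 1 of WT with vehicle the call was lost (adjusted p = 0.0578). The other 2 probe sets of Rsad2 did not show the rise, at -0.46 (adjusted p = 0.582) and 0.17 (adjusted p = 0.885) in a fit of all probe sets. Both lay below the median signal on 5 and 6 of 8 arrays. The mean of its 3 probe sets changed by 0.39 (adjusted p = 0.573). No other comparison called Rsad2: the change in KO cells was -0.14 ± 0.40 (adjusted p = 0.91), the difference under db-cAMP -0.63 ± 0.40 (adjusted p = 0.276), the difference under vehicle 0.98 ± 0.40 (adjusted p = 0.153) and the interaction -1.61 ± 0.56 (adjusted p = 0.0889). For KO against WT under vehicle the other 2 probe sets went the other way, at -1.03 and -0.86 (adjusted p = 0.298 and 0.535).

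Samhd1 encodes an enzyme that breaks down deoxynucleotides and so limits viruses that need them for DNA synthesis. Its main probe set gave 1877 and 1980 in KO cells with db-cAMP, 1571 and 1615 in KO cells with vehicle, 13504 and 13811 in WT cells with db-cAMP, and 4415 and 3962 in WT cells with vehicle. The 4 groups did not overlap, and both KO groups lay below both WT groups. Samhd1 averaged 13657 ± 217 in WT cells with db-cAMP and 4189 ± 320 in WT cells with vehicle (SD, n = 2 each). In WT cells it rose with db-cAMP by 1.71 ± 0.08 on the log2 scale, 3.26-fold (adjusted p = 2.54e-09). In KO cells the rise was 0.27 ± 0.08, 1.21-fold (adjusted p = 0.0487), and this call was lost under 13 alternatives, among them leaving out either array of any group except WT with vehicle (adjusted p of 0.0609 to 0.935 over the 13). KO cells gave 7.07-fold less than WT cells under db-cAMP (log2 change -2.82 ± 0.08, adjusted p = 6.71e-11). Under vehicle they gave 2.62-fold less (-1.39 ± 0.08, adjusted p = 1.3e-07), and with the mean of its probe sets the difference was -0.63 (adjusted p = 0.0424). The db-cAMP effect in KO cells minus that in WT cells was -1.43 ± 0.11 (adjusted p = 7.11e-06).

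All 4 other probe sets of Samhd1 also rose with db-cAMP in WT cells, by 1.24 to 1.72 on the log2 scale (adjusted p of 1.44e-06 to 0.029, in limma's fit of 21956 probe sets). All 4 were lower in KO cells than in WT cells under db-cAMP, at -1.43 to -2.42, the last from a probe set with 1 KO array below the median. In KO cells 1 of the 4 rose with db-cAMP (0.44, adjusted p = 0.0274), 3 were not called at 0.48, -0.36 and -0.62, and the main one was not called in this fit (adjusted p = 0.0705). Under vehicle 1 of the 4 was lower in KO cells (-0.71, adjusted p = 0.000631). The interaction was called for 2 of the 4, at -0.80 and -2.07.

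**Figure D2:**
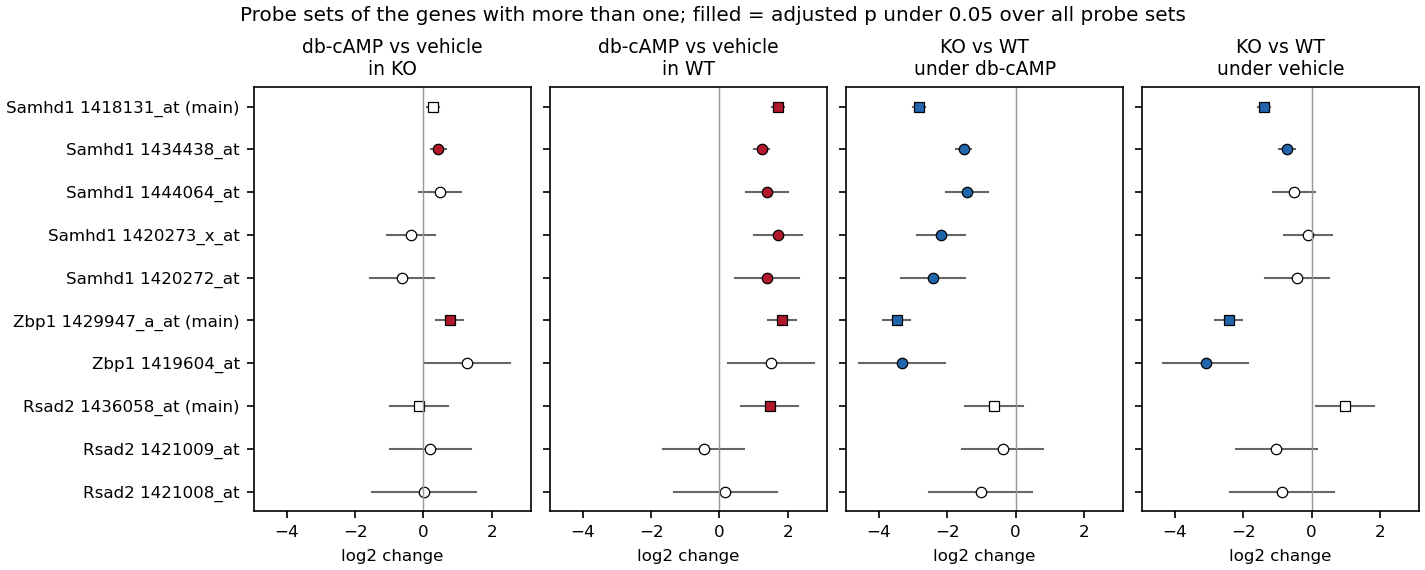
Log2 change of each probe set of Samhd1, Zbp1 and Rsad2 with db-cAMP over vehicle in KO and in WT cells, and in KO over WT cells under each treatment, with 95% intervals as lines, squares for main probe sets and filled marks for an adjusted p under 0.05 over all probe sets. The 5 Samhd1 probe sets all lie above 0 in WT cells, whereas the 3 Rsad2 probe sets differ in direction.

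Ifih1 encodes MDA5, a cytoplasmic sensor of long double-stranded RNA. It gave 336 and 273 in KO cells with db-cAMP, 494 and 445 in KO cells with vehicle, 409 and 355 in WT cells with db-cAMP, and 594 and 541 in WT cells with vehicle. In both genotypes the db-cAMP arrays lay below the vehicle arrays without overlap. It was the 1 member that fell, by 0.62 ± 0.16 on the log2 scale in KO cells (adjusted p = 0.0331) and by 0.57 ± 0.16 in WT cells (adjusted p = 0.0156). The fall in KO cells was lost without any 1 KO array (adjusted p of 0.0562 to 0.269). The fall in WT cells was lost without replicate 2 of WT with db-cAMP (adjusted p = 0.0928) or replicate 1 of WT with vehicle (adjusted p = 0.0954). The falls differed by -0.06 ± 0.23 between genotypes (95% interval -0.56 to 0.44, adjusted p = 0.924). KO cells gave 304 ± 44.2 and WT cells 382 ± 37.8 with db-cAMP (SD, n = 2 each), a difference that did not pass (-0.33 ± 0.16, adjusted p = 0.162).

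Zbp1 senses nucleic acids in the left-handed Z form and can start necroptosis, a form of cell death. Its main probe set gave 207 and 146 in KO cells with db-cAMP, 101 and 98.2 in KO cells with vehicle, 2022 and 1973 in WT cells with db-cAMP, and 608 and 515 in WT cells with vehicle. No groups overlapped, and every WT array stood above every KO array. Zbp1 rose with db-cAMP by 1.83 ± 0.19 on the log2 scale in WT cells, 3.54-fold (adjusted p = 4.09e-06), and by 0.77 ± 0.19 in KO cells, 1.7-fold (adjusted p = 0.0209). The rise in KO cells was not called without replicate 1 of KO with db-cAMP (0.52) or either array of KO with vehicle (0.79 and 0.75). It was also not called with the mean of the 2 probe sets (1.03, adjusted p = 0.127) or with only the 4 arrays compared (adjusted p = 0.115). KO cells gave 11.2-fold less than WT cells under db-cAMP (log2 change -3.48 ± 0.19, adjusted p = 3.03e-08) and 5.38-fold less under vehicle (-2.43 ± 0.19, adjusted p = 2.27e-06). The effects differed by -1.06 ± 0.26 (adjusted p = 0.0185), a call lost without replicate 2 of KO with db-cAMP, either array of WT with db-cAMP or replicate 2 of WT with vehicle (adjusted p of 0.0557 to 0.08). With the mean of its 2 probe sets that difference was -0.64 (adjusted p = 0.516). Its other probe set was also lower in KO cells under both treatments (-3.33 and -3.10). These sizes rest on dim KO signals, of 64.8 and 62.9 with db-cAMP and 6.35 and 62.4 with vehicle, close to or below the median. That probe set was not called for db-cAMP in WT cells (1.52, adjusted p = 0.0682) or in KO cells (1.29, adjusted p = 0.267). Nor was it called for the interaction (-0.23, adjusted p = 0.919).

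Usp18 removes ISG15 from proteins and blocks signalling at IFNAR2, which makes it a brake on the type I interferon response. It gave 176 and 284 in KO cells with db-cAMP, 66.4 and 97.2 in KO cells with vehicle, 1679 and 1461 in WT cells with db-cAMP, and 136 and 215 in WT cells with vehicle. Within each genotype the db-cAMP arrays stood above the vehicle arrays. Usp18 rose by 3.15 ± 0.28 on the log2 scale in WT cells, 8.91-fold (adjusted p = 1.22e-06), and by 1.41 ± 0.28 in KO cells, 2.66-fold (adjusted p = 0.00639). The rise in KO cells was not called with no intensity trend (adjusted p = 0.129). Nor was it called without replicate 2 of KO with db-cAMP (1.08) or replicate 1 of KO with vehicle (1.16). KO cells gave 6.87-fold less than WT cells under db-cAMP (log2 change -2.78 ± 0.28, adjusted p = 7.15e-06). Under vehicle the difference was -1.04 ± 0.28 (adjusted p = 0.0305), lost without replicate 1 of KO with vehicle or replicate 2 of WT with vehicle (adjusted p = 0.223 and 0.222). The effects differed by -1.74 ± 0.40 (adjusted p = 0.0115), a call lost with no intensity trend (adjusted p = 0.125). That call was also lost without replicate 1 of KO with db-cAMP (-1.40) or replicate 2 of KO with vehicle (-1.48).

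**Figure D3:**
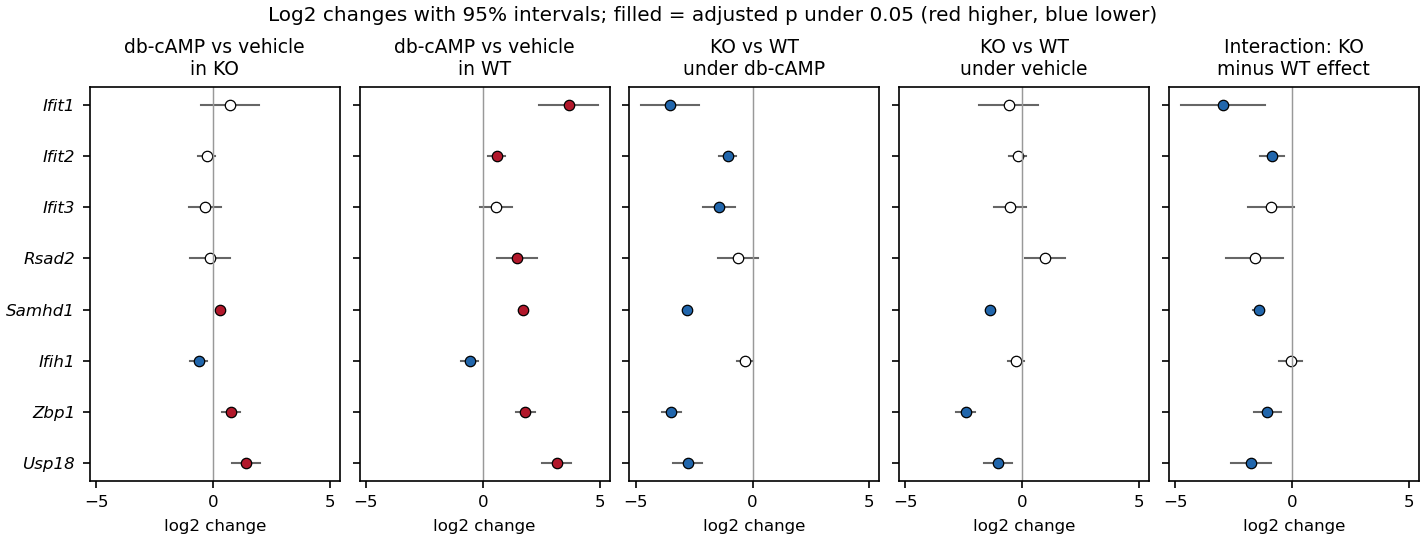
Log2 change of the 8 members tested with db-cAMP over vehicle in KO and in WT cells, in KO over WT cells under each treatment, and the interaction, with 95% intervals as lines and filled points for an adjusted p under 0.05 (red higher, blue lower). Ifih1 lies below 0 in both genotypes, and Ifit1, Usp18, Zbp1 and Samhd1 show the largest rises in WT cells.

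Further genes of the pathway came from a list of 70 ligands, receptor chains, kinases, transcription factors, sensors, effectors and feedback genes, of which 61 had a single-symbol probe set and 48 passed the filter. Among the 48, db-cAMP raised 5 and lowered 1 in KO cells, against 4.7% and 3.68% of all genes, and raised 16 and lowered 4 in WT cells, against 16.4% and 18.6%. KO cells had 1 higher and 16 lower than WT cells under db-cAMP, against 15.9% and 13.3% of all genes. Under vehicle they had 2 higher and 9 lower, against 5.06% and 5.78%, and leaving out any 1 vehicle array gave 6 or 7 calls in place of 11. The interaction was called below 0 for 7 and above 0 for 0, against 5.09% and 6.7% of all genes, where at an unadjusted p under 0.05 limma had 1 above 0. Median log2 changes were 0.08 in KO cells and 0.14 in WT cells with db-cAMP, against -0.00 and 0.01 for all genes tested. They were -0.49 under db-cAMP and -0.23 under vehicle for KO against WT, against -0.00 and -0.01.

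The type I interferon genes themselves were near background. Ifnb1 gave 59.5 and 39.2 in KO cells with db-cAMP, 35.5 and 39.8 in KO cells with vehicle, 11.1 and 71.1 in WT cells with db-cAMP, and 57.5 and 21.8 in WT cells with vehicle. It was below the median signal on 6 of 8 arrays, and no change was called in either genotype (0.32 ± 0.85 in KO cells, adjusted p = 0.899, and -0.22 ± 0.85 in WT cells, adjusted p = 0.876). Ifna1, Ifna2 and Ifna4 were below it on 7 of 8 arrays, and Ifna5, Ifna9 and Ifnab on all 8.

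Of the 8 receptor chains, kinases and transcription factors measured, 5 rose with db-cAMP in WT cells and 2 in KO cells. Over all genes tested 16.4% were called higher in WT cells and 4.7% in KO cells. Ifnar1, a chain of the type I interferon receptor, gave 1460 and 1430 in KO cells with db-cAMP, 784 and 688 in KO cells with vehicle, 2344 and 1969 in WT cells with db-cAMP, and 578 and 521 in WT cells with vehicle. The db-cAMP arrays stood far above the vehicle arrays in both genotypes. Ifnar1 rose by 0.97 ± 0.12 on the log2 scale in KO cells (adjusted p = 0.000158) and by 1.96 ± 0.12 in WT cells (adjusted p = 2.86e-08), and the effects differed by -0.99 ± 0.17 (adjusted p = 0.00171). Its partner chain Ifnar2 gave 662 and 737, 553 and 523, 801 and 769, and 479 and 519 in the same order of groups, and rose in WT cells (0.65 ± 0.13, adjusted p = 0.00113). In KO cells the Ifnar2 change was 0.37 ± 0.13 (adjusted p = 0.0954).

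Irf9, the DNA-binding partner of STAT2, gave 687 and 620 in KO cells with db-cAMP, 411 and 421 in KO cells with vehicle, 1898 and 1817 in WT cells with db-cAMP, and 769 and 970 in WT cells with vehicle. Every WT array was above every KO array. Irf9 rose with db-cAMP by 0.64 ± 0.13 in KO cells (adjusted p = 0.0066, lost without replicate 1 of KO with db-cAMP at adjusted p = 0.0835) and by 1.10 ± 0.13 in WT cells (adjusted p = 1.47e-05). KO cells were lower under both treatments, at -1.50 ± 0.13 under db-cAMP and -1.04 ± 0.13 under vehicle (adjusted p = 1.78e-06 and 0.000175), and the interaction was not called (-0.46 ± 0.18, adjusted p = 0.139).

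Irf7, which drives interferon-α genes, rose in WT cells by 1.31 ± 0.42 (adjusted p = 0.027), a call lost without replicate 2 of WT with db-cAMP or replicate 2 of WT with vehicle (adjusted p = 0.213 and 0.138). In KO cells Irf7 gave 87.7 and 88.2 with db-cAMP and 36.8 and 46.0 with vehicle, without overlap. Both of these vehicle arrays lay below the median signal. The change in KO cells had a 95% interval of 0.09 to 1.91 on the log2 scale and did not pass the test (adjusted p = 0.19). The interaction for Irf7 was -0.31 ± 0.59 and was not called (adjusted p = 0.82), so a difference between genotypes was not shown. The kinase Jak1 rose in WT cells by 0.41 ± 0.10 (adjusted p = 0.0058), lost without replicate 2 of WT with db-cAMP or replicate 1 of WT with vehicle (adjusted p = 0.0741 and 0.079), and with the mean of its probe sets at 0.25 (adjusted p = 0.143). Tyk2 (-0.10 ± 0.13, adjusted p = 0.626), Irf3 (-0.15 ± 0.09, adjusted p = 0.236) and Stat2 (1.25 ± 0.58, adjusted p = 0.115) were not called for db-cAMP in WT cells. Stat2 was called there without replicate 1 of KO with vehicle (adjusted p = 0.0467).

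**Figure D4:**
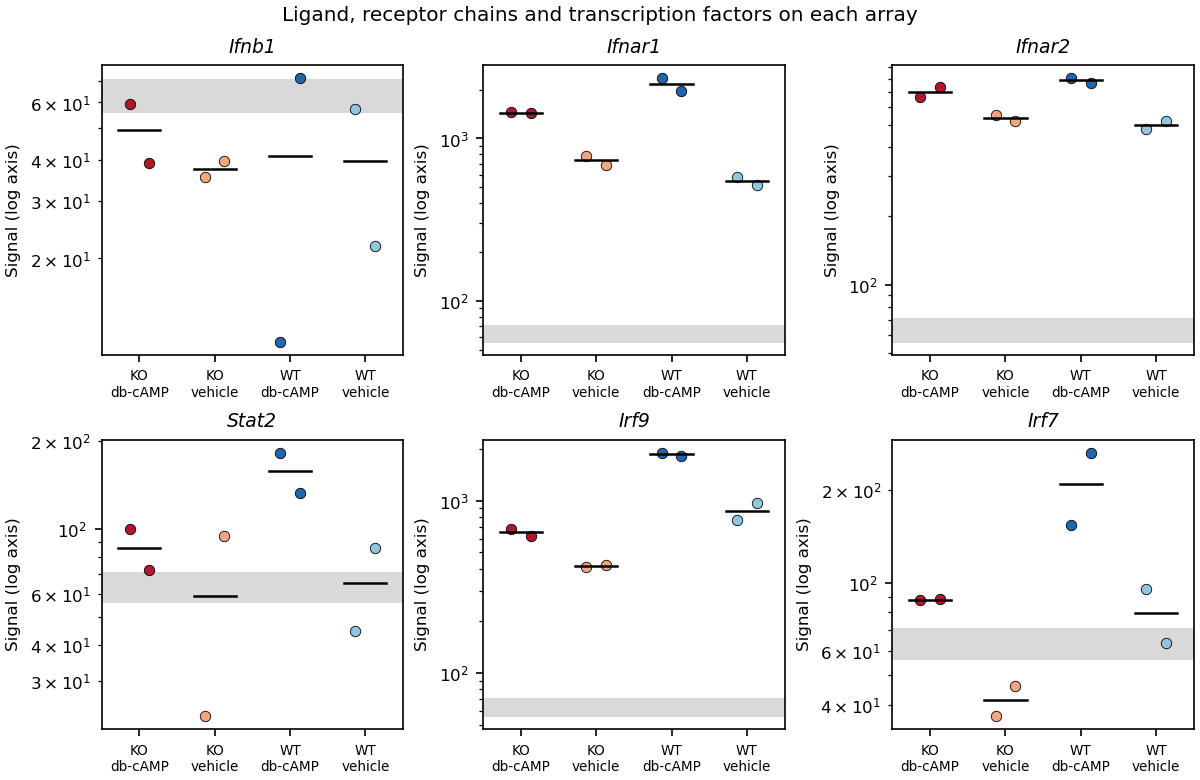
Signal (scaled linear intensity, log axis) of Ifnb1, the receptor chains Ifnar1 and Ifnar2 and the factors Stat2, Irf9 and Irf7 on each of the 8 arrays, by group, with the grey band as in the plot of members' signals. Ifnar1 is higher with db-cAMP in both genotypes, and Ifnb1 lies below or around the band.

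Of the 8 other sensors and adaptors tested, 3 fell with db-cAMP in WT cells and 0 rose, against 18.6% and 16.4% of all genes, and limma had 0 risen at an unadjusted p under 0.05 too. Cgas, the cytoplasmic DNA sensor, changed by -1.33 ± 0.26 (adjusted p = 0.00123). Its adaptor Sting1 changed by -0.43 ± 0.11 (adjusted p = 0.00884, and 0.0631 without replicate 2 of WT with vehicle). Mavs, the adaptor downstream of MDA5, changed by -0.43 ± 0.15 (adjusted p = 0.0424). The Mavs call was lost when any 1 array other than replicate 2 of WT with vehicle was left out, and without replicate 1 of WT with vehicle the change was -0.16. Ifih1 moved the same way, whereas the sensor Zbp1 rose. In KO cells 0 of these 8 were called, where limma had 2 lower at an unadjusted p under 0.05. Tlr9, the endosomal DNA sensor, was higher in KO cells than in WT cells under db-cAMP (2.05 ± 0.71, adjusted p = 0.0456), from signals above the median on all 4 KO arrays and below it on all WT arrays. With the WT signals raised to their arrays' medians it was at least 1.07-fold higher, and leaving out any 1 array of KO or of WT with db-cAMP ended that call.

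Of the 28 effectors tested, 2 rose and 1 fell with db-cAMP in KO cells, against 4.7% and 3.68% of all genes. In WT cells 9 rose and 1 fell, against 16.4% and 18.6% of all genes. Ifi27l2a rose by 0.87 ± 0.10 in KO cells (adjusted p = 8.37e-05) and by 1.94 ± 0.10 in WT cells (adjusted p = 5.64e-09), and the effects differed by -1.07 ± 0.14 (adjusted p = 0.000266). Parp9 and Parp14, ADP-ribosyltransferase family members, rose in WT cells by 1.11 ± 0.18 and 1.07 ± 0.18 (adjusted p = 0.000295 and 0.000331). Both were lower in KO cells than in WT cells, at -2.49 and -2.42 under db-cAMP and -1.83 and -1.51 under vehicle. With the mean of its probe sets Parp14 was called neither for db-cAMP in WT cells (0.77, adjusted p = 0.0753) nor for KO against WT under vehicle (-0.97, adjusted p = 0.0718). Ifi203 fell in WT cells (adjusted p = 0.0362) to signals below the median on both db-cAMP arrays, which makes it at least 1.19-fold lower, a call lost without any of 6 arrays (both of KO with db-cAMP, replicate 2 of KO with vehicle, replicate 2 of WT with db-cAMP and both of WT with vehicle). Pml, which organises nuclear bodies, fell in KO cells by 1.02 ± 0.25 (adjusted p = 0.0258), lost without any 1 KO array, and with the mean of its probe sets it changed by -0.35 (adjusted p = 0.653).

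Under db-cAMP 12 of the 28 effectors were lower in KO cells than in WT cells and 0 higher, against 13.3% and 15.9% of all genes, where limma had 1 higher at an unadjusted p under 0.05. Under vehicle 7 were lower and 0 higher, against 5.78% and 5.06% of all genes, and limma had 0 higher at an unadjusted p under 0.05 too. Rtp4, a receptor-transporting protein induced by interferon, was lower in KO cells under db-cAMP (at least 3-fold, since 1 of the KO arrays lay below the median, adjusted p = 0.00571, and 0.0625 without replicate 1 of KO with db-cAMP). Ifitm3, a membrane protein that blocks virus entry, was lower in KO cells under vehicle (-0.98 ± 0.23, adjusted p = 0.016). That call was lost without replicate 2 of KO with vehicle or either array of WT with vehicle (adjusted p of 0.0593 to 0.11). Ifitm3 was not called for db-cAMP in WT cells (0.08 ± 0.23, adjusted p = 0.828).

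Among the 3 feedback genes tested, 2 rose with db-cAMP in WT cells and 1 in KO cells, against 16.4% and 4.7% of all genes. Socs3, an inhibitor of JAK kinases, gave 583 and 654 in KO cells with db-cAMP, 202 and 237 in KO cells with vehicle, 2292 and 2263 in WT cells with db-cAMP, and 309 and 398 in WT cells with vehicle. The 4 groups did not overlap. Socs3 rose by 1.48 ± 0.15 in KO cells (adjusted p = 4.18e-05) and by 2.68 ± 0.15 in WT cells (adjusted p = 1.59e-08), and the effects differed by -1.20 ± 0.21 (adjusted p = 0.00252).

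**Figure D5:**
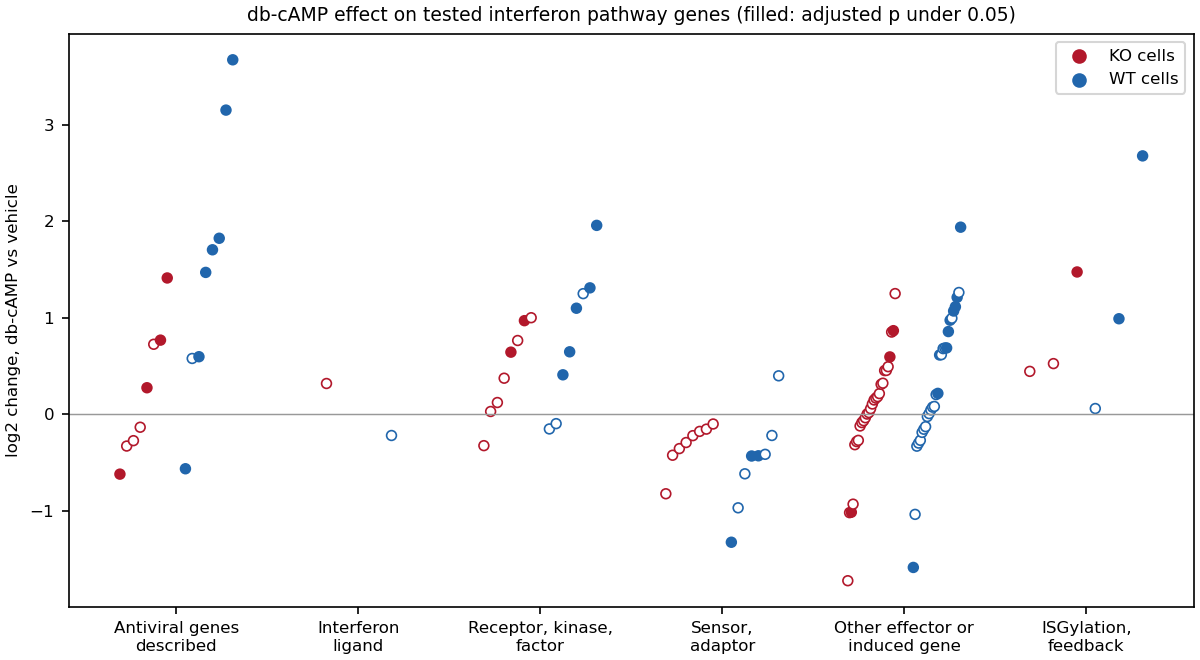
Log2 change with db-cAMP over vehicle of the 8 members and the 48 pathway genes tested, by role, in KO cells (red) and in WT cells (blue), with filled points for an adjusted p under 0.05. Receptor, kinase and factor genes lie mostly above 0 in WT cells (median 0.87) and sensors and adaptors mostly below (median -0.43).

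The genes whose signals followed a member most closely were sought among 5717 genes tested whose log2 values spanned at least 1. Over the 8 arrays Usp18 correlated best with Rell1, Serpinb9 and Capn2 (Pearson r of 0.995, 0.993 and 0.99), and Ifit1 with Slc25a40, Bnip3 and Scd1 (r of 0.986, 0.984 and 0.982). Ifih1, the member that fell, correlated best with Czib, H2-T24 and Asns (r of 0.973, 0.965 and 0.965). These arrays fall into 4 groups of 2, so the correlations describe the pattern over groups and carry no test.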

How the data were processed

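The deposited table holds a linear intensity for every probe set on each array, made with MAS5 per the submitters' processing notes. Labelled cRNA came from a GeneChip IVT Express kit, per the labels' protocols. Each column had a trimmed mean of 500.0, so the deposited intensity had been scaled per array, and a change of total mRNA per cell is not measured. The number of arrays limits the precision. Near background means below the array's median signal (56.2 to 70.5).

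Of 45101 probe sets, 34945 had 1 gene symbol in the platform annotation, 932 had several, 9160 had none and 64 were controls. Values were taken as log2(value + 5.48), which understates fold changes at low signal. Each gene was represented by its single-symbol probe set of highest mean. The filter left 12091 genes and set aside 6102. Differences were tested with limma 3.58.1 in R 4.3.3 (lmFit, eBayes with an intensity trend, 1 term per group, all 8 arrays, 4 residual degrees of freedom), and every adjusted p is limma's Benjamini-Hochberg value over all genes tested. Errors of log2 changes are standard errors. Python 3.11.15 and matplotlib 3.10.9 drew the figures. Replicates correlated at 0.961 to 0.977 across genes, which are not independent.

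The members, the pathway list, the marker lists and the tests were chosen with earlier results of these data known. All members are named. Of the pathway list, the text may name up to 4 genes that rose and 4 that fell in a comparison, by size among those called, and the ligands, receptor chains, kinases and transcription factors whatever their values. For the 2 members with the largest rise and the 1 with the largest fall in WT cells, the 3 most correlated genes are named. Alternatives varied the offset, the filter, the scaling, the trend, the use of probe sets, the arrays fitted and the replicate block.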

Additional observations from a re-analysis of the deposited data

Results flagged for a closer look

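The effect of db-cAMP differed between the genotypes, by limma's interaction term, for 5 members. The db-cAMP effect in KO cells minus that in WT cells was -2.95 for Ifit1, -0.87 for Ifit2, -1.43 for Samhd1, -1.06 for Zbp1 and -1.74 for Usp18, all on the log2 scale. For Ifit1 the size rests on signals near background, since 5 of its 6 arrays outside WT with db-cAMP lay below the median. Ifit1 also passed the filter through WT arrays alone. Over all 12091 genes tested 5.09% had such a difference called below 0. Groups of 2 arrays are too small for a search for outlying arrays.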

How the results depend on the processing

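Under 19 alternatives 747 values of the members were recomputed, of which 679 kept their side of the threshold, 68 lost a call, 0 gained one and 0 called values changed direction. The count of members called for db-cAMP in KO cells (4) became 2 with no filter on dim genes, 2 with the mean of probe sets, 2 with only the 4 arrays compared and 0 with no intensity trend (limma had 4 at an unadjusted p under 0.05 then), and ran from 0 to 4 when 1 array was left out. The count called for the interaction (5) became 1 with no intensity trend and 2 with the mean of probe sets, and ran from 2 to 5 when 1 array was left out. The counts for db-cAMP in WT cells (7), KO against WT under db-cAMP (6) and under vehicle (3) ran from 5 to 7, from 6 to 6 and from 2 to 3 with 1 array left out, and from 6 to 7, from 5 to 6 and from 2 to 3 under the other alternatives. Of the 48 pathway genes, the counts for KO cells (6), KO against WT under vehicle (11) and the interaction (7) became 3, 5 and 0 with no intensity trend, where limma had 14, 15 and 11 at an unadjusted p under 0.05. For the 21 pathway genes named, 1827 of 1944 values kept their side, 91 lost a call and 26 gained one. The replicate numbers did not pair the arrays (correlations of deviations from -0.02 to 0.02). With the replicate block the counts of members called were 3, 7, 6, 3 and 5 for db-cAMP in KO, db-cAMP in WT, KO against WT under db-cAMP, under vehicle and the interaction. The cause of these changes was not tested. Signals near the array median limit what can be said of Ifit1 outside WT cells with db-cAMP, of Oasl2, of 2 Rsad2 probe sets and of the interferon genes.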
